A study of Mus musculus with 12 samples.

Results

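Imprinted genes are expressed from 1 parental copy, and the choice is set by DNA methylation laid down in the egg or the sperm. The 45 imprinted gene loci described here were chosen by name from the 32011 gene loci of the mm10 annotation, each from 5 kb upstream of its start to its end, and they hold 33749 of the 21867550 CpG sites counted in the series. Of these sites, 8807 were dense, meaning that 6 or more other CpG sites lay within 100 bp on both sides together, and 24942 were not. They are called dense sites and other sites in what follows. In at least 1 line, 26391 of the 33749 sites were read.

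CpG methylation was measured by eRRBS, in which genomic DNA is cut with restriction enzymes, treated with bisulfite, which turns unmethylated but not methylated cytosines into T in the reads, and sequenced. All 12 lines were mouse ES cells with knockout of Dnmt1, Dnmt3a and Dnmt3b (TKO cells), transfected by Lipofectamine. They stably expressed human DNMT3A1 or Flag-tagged human DNMT3B1 from the pPyCAGIZ vector. According to the labels, selection in Zeocin ran for 10 days at 50 µg/ml and the cells were then kept at 25 µg/ml. The study's methods give over 2 weeks of selection. There were 6 groups of 2 independently derived lines each, expressing WT DNMT3A, WT DNMT3B (set a), DNMT3B N656I, WT DNMT3B (set b), DNMT3B K777A or DNMT3B N779A. The 3 substitutions lie in the catalytic domain. DNMT3A and N656I were compared with set a, and K777A and N779A with set b. The enzyme is made from a vector and not from the endogenous gene, and cells carrying the empty vector were not analysed here, so the level at these sites without an added enzyme was not measured. The study followed conversion with unmethylated lambda DNA and reports high rates. That DNA is not part of the counts used here, so the part of incomplete conversion in the lowest levels was not tested. The counts hold no expression, so the cell type could not be checked against its marker genes.

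At most imprinted clusters a CpG-rich control region carries the parental mark. Egg-derived marks usually sit on a promoter inside the cluster, such as that of Snrpn, Kcnq1ot1, Airn, Peg3 or Mest, while sperm-derived marks, as at H19 and between Dlk1 and Meg3, lie away from promoters. DNMT3A with DNMT3L sets these marks in the germ cells, DNMT1 copies them at each division, and ZFP57 with TRIM28 binds the methylated copy and protects it in the early embryo. Cells that lack all 3 DNA methyltransferases have no enzyme to copy the marks, and the design asks whether an enzyme put back into such cells methylates imprinted loci again. The counts do not separate the parental copies.

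The promoters of 4 imprinted genes and 2 CpG-rich stretches away from promoters show the DNA that the results turn on. They are printed 5′ to 3′ in GRCm38 (the same assembly as mm10), with every CpG in capitals. The promoters are RefSeq windows from 250 bases before to 50 after the start of Snrpn (chr7:60005150-60005449, minus strand), Kcnq1ot1 (chr7:143296498-143296797, minus strand), Mest (chr6:30737800-30738099, plus strand) and Meg3 (chr12:109540746-109541045, plus strand). The other stretches are a cluster upstream of Igf2 (chr7:142669633-142669881, minus strand) and a part of a cluster in a coding exon of Trappc9 (chr15:73025928-73026227, minus strand).
Snrpn promoter: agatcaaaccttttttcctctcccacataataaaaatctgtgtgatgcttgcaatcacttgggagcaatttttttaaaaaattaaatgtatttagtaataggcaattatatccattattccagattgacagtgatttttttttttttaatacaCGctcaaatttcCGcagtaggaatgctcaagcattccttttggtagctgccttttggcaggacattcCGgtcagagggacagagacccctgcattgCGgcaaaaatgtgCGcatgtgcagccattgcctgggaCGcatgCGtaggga
Kcnq1ot1 promoter: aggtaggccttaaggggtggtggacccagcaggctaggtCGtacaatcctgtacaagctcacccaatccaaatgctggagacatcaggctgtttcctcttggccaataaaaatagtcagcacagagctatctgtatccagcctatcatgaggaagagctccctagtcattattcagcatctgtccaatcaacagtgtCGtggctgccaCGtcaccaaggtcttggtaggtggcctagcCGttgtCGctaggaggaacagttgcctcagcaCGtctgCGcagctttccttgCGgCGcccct
Mest promoter: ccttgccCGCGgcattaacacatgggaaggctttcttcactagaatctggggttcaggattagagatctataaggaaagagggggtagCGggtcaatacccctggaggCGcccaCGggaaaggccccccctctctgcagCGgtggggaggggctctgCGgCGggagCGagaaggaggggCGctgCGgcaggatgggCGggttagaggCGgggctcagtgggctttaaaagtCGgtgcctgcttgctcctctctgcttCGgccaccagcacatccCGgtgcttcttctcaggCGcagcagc
Meg3 promoter: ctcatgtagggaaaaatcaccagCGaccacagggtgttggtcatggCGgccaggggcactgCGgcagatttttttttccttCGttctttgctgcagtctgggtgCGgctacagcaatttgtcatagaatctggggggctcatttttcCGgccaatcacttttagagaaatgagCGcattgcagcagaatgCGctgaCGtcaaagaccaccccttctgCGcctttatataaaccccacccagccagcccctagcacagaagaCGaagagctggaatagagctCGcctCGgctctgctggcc
Igf2 upstream cluster: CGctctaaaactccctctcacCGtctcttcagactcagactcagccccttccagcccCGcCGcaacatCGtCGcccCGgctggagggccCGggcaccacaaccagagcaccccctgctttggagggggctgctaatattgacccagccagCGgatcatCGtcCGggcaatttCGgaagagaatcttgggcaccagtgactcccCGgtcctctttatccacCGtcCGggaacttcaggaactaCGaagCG
Trappc9 exon cluster: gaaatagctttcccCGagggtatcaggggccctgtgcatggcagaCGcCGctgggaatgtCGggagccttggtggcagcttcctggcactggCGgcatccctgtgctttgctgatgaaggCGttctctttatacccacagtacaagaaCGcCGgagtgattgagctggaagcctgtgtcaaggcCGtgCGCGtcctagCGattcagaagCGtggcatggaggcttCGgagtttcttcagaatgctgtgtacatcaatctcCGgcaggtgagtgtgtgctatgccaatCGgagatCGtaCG

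These windows hold 7 CpG sites at Snrpn, 9 at Kcnq1ot1, 17 at Mest, 13 at Meg3, 17 at Igf2 and 18 at Trappc9. The Igf2 and Trappc9 stretches were picked for their high mean level among clusters away from starts. Their contrast with the promoters was thus set by the choice. Summed over the 12 lines, 0 of 242 reads were methylated at the Snrpn promoter, 2 of 374 at Kcnq1ot1 and 2 of 325 at Mest. At the Meg3 promoter 6 of 352 reads were methylated, all 6 of them in the DNMT3A lines (6 of 96 reads). At the Igf2 stretch 192 of 808 reads (23.8%) were methylated and at Trappc9 235 of 995 (23.6%). These sums mix enzymes, count a read at each CpG site it covers and are a description of where methylated reads lay. The Snrpn and Meg3 windows each hold 1 copy of TGCCGC, the core of the ZFP57 motif, counted on both strands, the Trappc9 stretch likewise, and the Mest window holds 2.

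The depth varied between lines. Reads on CpG sites numbered 16224222 to 36029921 per line, on 1030180 to 10717789 covered sites. The second WT DNMT3B line of set a stood apart, with the fewest covered sites and 15.7 reads at each. Among its other sites in imprinted loci with at least 10 reads, 91.3% were either fully methylated or fully unmethylated, against 20.7% to 80.0% in the remaining lines. Fully methylated sites held 2920 of its 4025 methylated reads there (72.5%), and 620 of 744 at dense sites (83.3%). In the other lines this share was at most 12.3% at other sites and 13.7% at dense sites. Neighbouring sites shared these reads: at 3 sites of the Sfmbt2 locus all 52 reads of this line were methylated, and at 6 sites of the Rian locus all 49. It is called the sparse line in what follows, and the counts of loci called against set a are given with and without it.

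At their other sites the imprinted loci carried methylation in every line, most with DNMT3A and least with K777A. The 2 DNMT3A lines had 41.7% and 43.4% of reads methylated over all imprinted loci together. The lines of set a had 19.6% and 18.9%, and those of N656I 17.6% and 12.6%. The lines of set b had 17.0% and 16.7%, those of K777A 8.34% and 9.48%, and those of N779A 13.7% and 14.6%. Both DNMT3A lines lay above all DNMT3B lines and both K777A lines below all others, while the N656I and N779A lines lay in between, below both sets of WT lines except that the first N656I line lay above set b.

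As means, these were 42.6% ± 1.17 (SD, n = 2) for DNMT3A, 19.3% ± 0.431 for set a, 15.1% ± 3.54 for N656I, 16.9% ± 0.212 for set b, 8.91% ± 0.804 for K777A and 14.1% ± 0.629 for N779A. With 2 lines against 2, an exact permutation test (two-sided) cannot give a p below 0.33, so the means are given as a description. The remaining gene loci had nearly the same values in the same order, 41.6% and 41.5% in the DNMT3A lines, 18.9% and 17.0% in set a and 7.86% and 8.94% in K777A. The imprinted loci minus the remaining gene loci gave −0.36 to 1.93 percentage points per line, positive in 10 of 12 lines. At other sites the imprinted loci thus had about the level of gene loci in general.

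**Figure D1:**
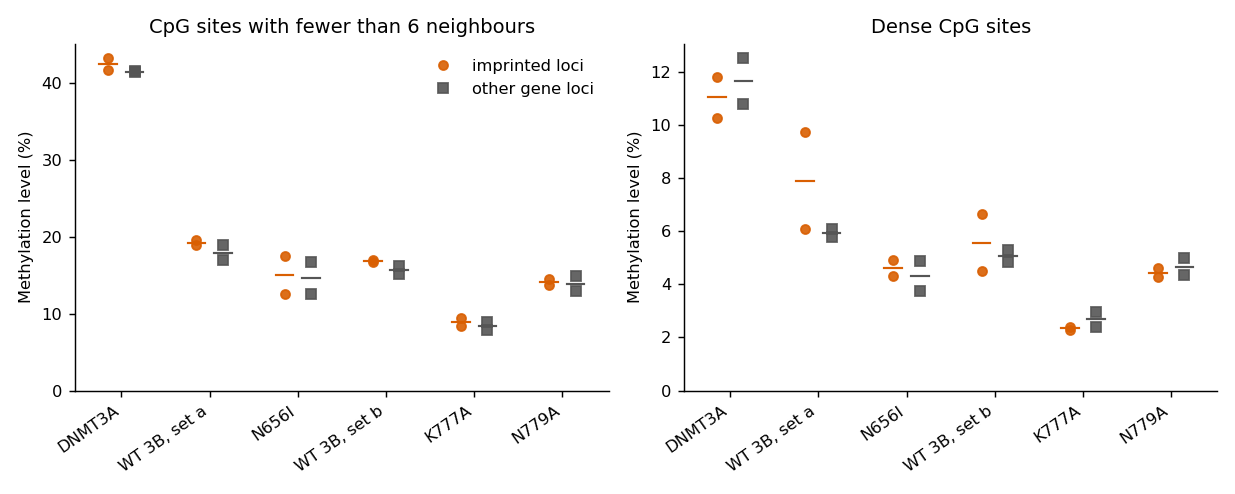
Methylation level (%, methylated reads over all reads) of each line at other sites (left) and dense sites (right), for the imprinted loci (orange circles) and the remaining gene loci (grey squares), with a short bar at the mean of 2 lines. By group mean DNMT3A is the highest and K777A the lowest in both panels and both classes, and the lines of imprinted loci run from 43.4% to 8.34% at other sites and from 11.8% to 2.30% at dense sites.

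Dense sites of the imprinted loci had lower levels in every line. They were methylated at 10.3% and 11.8% in the DNMT3A lines, 6.08% and 9.74% in set a, 4.94% and 4.33% in N656I, 6.65% and 4.50% in set b, 2.41% and 2.30% in K777A and 4.27% and 4.62% in N779A. The value of 9.74% is that of the sparse WT line. The remaining gene loci had 10.8% and 12.6% with DNMT3A and 2.41% and 2.97% with K777A, and the difference per line ran from −0.72 to 3.63 percentage points, positive in 7 of 12 lines. The upper limit is the sparse line too, and the next line had 1.35. These levels depend on what counts as dense. With 6 or more CpG sites on each side, the group means fell to 1.11% ± 0.377 (SD, n = 2) for DNMT3A, 1.44% ± 0.276 for set a and 0.708% ± 0.301 for K777A, and DNMT3A no longer lay above set a.

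The level fell with the number of neighbouring CpG sites and not in 1 step. In the DNMT3A lines, imprinted sites with no other CpG within 100 bp had 42.3% and 43.8%, those with 6 to 8 neighbours 25.9% and 28.2%, those with 9 to 12 neighbours 10.1% and 13.8%, and those with 13 or more 1.74% and 0.51%. In K777A the same classes had 9.25% and 9.87%, 5.21% and 5.69%, 2.46% and 1.67%, and 1.08% and 0.575%. At 13 or more neighbours the 12 lines lay between 0.51% and 4.36%, the latter in the sparse WT line, and DNMT3A no longer stood above DNMT3B. Sites with 13 or more neighbours in the remaining gene loci had 1.27% and 1.46% in the DNMT3A lines.

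**Figure D2:**
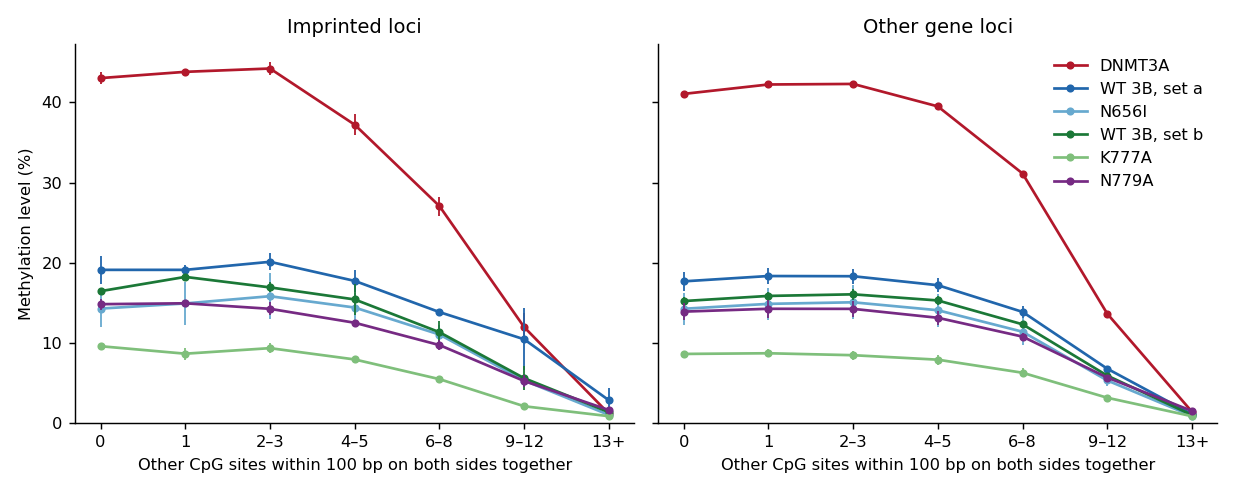
Methylation level (%) against the number of other CpG sites within 100 bp, in imprinted loci (left) and the remaining gene loci (right). Points are means of 2 lines and bars span both lines, and in DNMT3A the imprinted level falls from 42.3% and 43.8% with no neighbour to 1.74% and 0.51% with 13 or more.

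To look at control regions and not whole genes, dense sites at most 200 bp apart were joined into clusters of 15 or more sites, of which 112 of 52839 lay in imprinted loci. At annotated transcript starts of the 17 genes with egg-derived promoter or internal marks there were 27 clusters, at starts of the remaining imprinted genes 24, and 59 lay away from any annotated start. The other 2 lay at starts of transcripts of genes that are no members. All annotated starts of the 17 genes count here. For Gnas, Grb10 and Inpp5f the mark sits on an internal island, so the 27 include starts without the mark. The dense sites of the 27 clusters had, as a sum over reads, 2.02% and 1.65% in the DNMT3A lines, 2.13% and 2.07% in set a, 1.03% and 1.77% in N656I, 1.81% and 1.47% in set b, 0.858% and 0.814% in K777A and 1.38% and 1.68% in N779A. The K777A lines were the lowest. DNMT3A, the highest enzyme at other sites, lay just below set a, whose 2.07% is the sparse line, and overlapped set b. The 24 clusters at the remaining imprinted starts ranged from 0.405% to 1.84% over the lines, and 15482 clusters at annotated starts elsewhere from 0.64% to 1.70%.

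The 59 clusters away from starts were methylated, in contrast. They had 14.5% and 19.1% in the DNMT3A lines, 9.25% and 6.01% in set a, 10.9% and 6.23% in N656I, 8.70% and 5.36% in set b, 2.62% and 2.29% in K777A and 3.07% and 5.34% in N779A. The 37245 clusters away from starts elsewhere had 17.7% and 18.8% in the DNMT3A lines, and 3.17% and 4.18% as the lower and the higher of the K777A lines. Clusters at starts were larger, with a median of 79 sites in the 27, so clusters of 15 to 30 sites were also set side by side. In the DNMT3A lines 9 such clusters at starts of imprinted genes had 1.48% and 2.13%, and 43 away from starts had 25.6% and 34.8%. Elsewhere, small clusters had 11.9% and 12.7% at starts and 26.9% and 27.5% away from them. In K777A the small clusters at starts had 3.31% and 2.56% for imprinted genes, beside 2.50% and 2.75% elsewhere, and the lines of set a had 6.53% and 1.79% beside 5.93% and 7.25%. The 9 small clusters rest on 526 reads in the DNMT3A lines together, and on 255 in set a.

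Cluster by cluster, 24 of the 27 were read at least 20 times in 6 or more lines, and 21 of these had fewer than 2% of all reads methylated, the highest reaching 8.33%. At the remaining imprinted starts 17 of 21 lay below 2% and the highest reached 5.04%. Away from starts 11 of 27 lay below 2%, 8 reached 10% or more, and the highest was 37.7%. A level of a single line is given below where that line had at least 20 reads in the cluster.

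**Figure D3:**
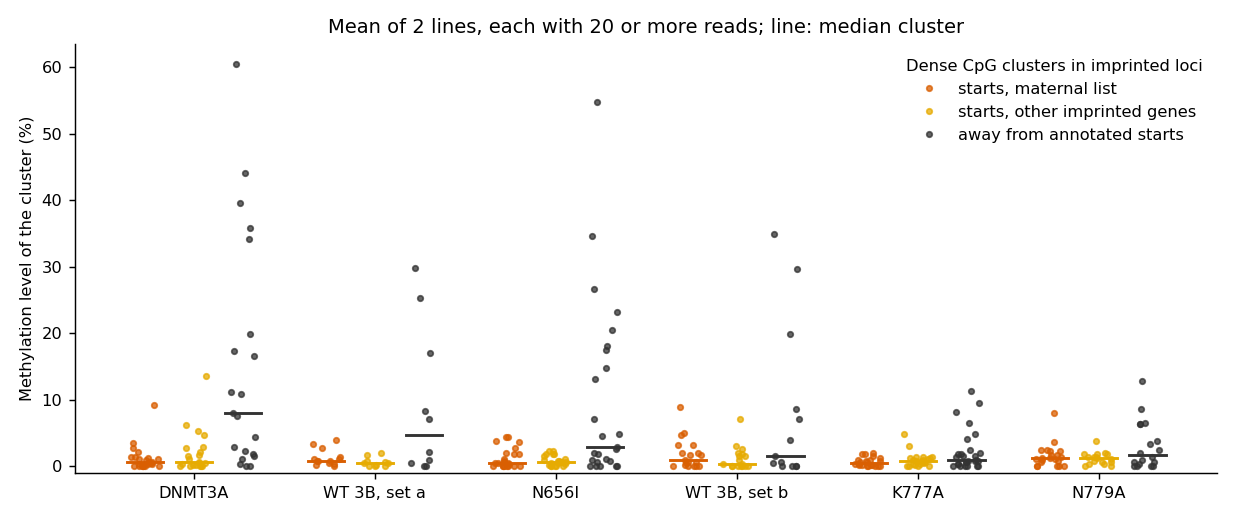
Methylation level (%) of dense CpG clusters in imprinted loci, by enzyme and place. A point is a cluster (mean of 2 lines, both with 20 or more reads), and a horizontal line is the median cluster. Clusters at starts crowd near 0 in all 6 groups, while clusters away from starts reach 60.4% with DNMT3A.

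The control region promoters with egg-derived marks were almost free of methylated reads. At Snrpn, the start of the Prader-Willi and Angelman cluster's control region, 1 of 700 reads was methylated in the 12 lines together (chr7:60004318-60005229, 0.143%, exact 95% interval 0.00362 to 0.793). That read was in the first N656I line. At Kcnq1ot1, a long noncoding RNA that silences its neighbours, 12 of 2246 reads were methylated (chr7:143295052-143296600, 0.534%), and the DNMT3A lines had 0.571% and 0%. The highest line was the second N779A line with 4.92%. These intervals and shares cover counting error only, since PCR copies of a molecule cannot be recognised. A read over several CpG sites is counted at each, and the exact limits here and below treat all counts as independent. They can therefore be too narrow.

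Airn, the noncoding RNA that silences Igf2r, had 23 of 1383 reads methylated at its start (chr17:12741368-12742665, 1.66%), with 4.33% in the first line of set a as the highest line. The start shared by Peg3, a zinc-finger gene, and Usp29 had 14 of 1209 (chr7:6729242-6731227, 1.16%). There 9 of 12 lines had 0%, and the first N779A line had 7.36%. At Mest, which encodes a hydrolase-like protein, 21 of 1128 reads were methylated (chr6:30737666-30738866, 1.86%). The 2 N779A lines had 0% and 15.9% there, a difference as large as the range over all 12 lines, and DNMT3A had 0.625% and 0%.

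Starts of further genes on this list had similar values. Plagl1, a zinc-finger regulator of growth, had 0.378% of 2907 reads methylated, Zrsr1 0.477% of 2097, Inpp5f 0.897% of 1784 and 1.21% of 824 in its clusters, and Nnat 0.964% of 1453. Peg13, a noncoding RNA inside Trappc9, had 1.31% of 1224, Mcts2 1.48% of 1484, Nap1l5 1.53% of 654 and the shared start of Peg10 and Sgce 2.31% of 1600. The clusters of Grb10, an adaptor that restrains growth signalling, had 1.36% of 4990 and 1.74% of 6330, and those of Impact 0.679% of 442 and 0.782% of 1662. Slc38a4, an amino acid transporter gene, had 0 of 243 at its first start, which allows a share of up to 1.51% (exact 95% limit), and 23 of 142 reads (16.2%) at an inner start read in 3 lines.

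Gnas, which encodes the stimulatory G protein alpha subunit and has several promoters, had the highest values on this list among clusters read in 6 or more lines. The egg-derived mark of Gnas sits on an internal island and not on its first promoter. Its first promoter (chr2:174283967-174287246) had 175 of 4095 reads methylated (4.27%), with 11.5% and 6.84% in the DNMT3A lines, 7.81% and 0% in set a, 3.05% and 5.83% in N656I, 0% and 4.02% in set b, 0.802% and 2.87% in K777A and 1.86% and 1.44% in N779A. The DNMT3A lines overlapped set a. The clusters at its inner starts had 0.753% of 531 reads, 8.33% of 228, 1.54% of 1433 and 0.524% of 4958.

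The genes with sperm-derived marks differ in that those marks lie away from promoters. H19, a noncoding RNA, had 0 of 217 reads methylated at its start (chr7:142577608-142578315), which allows up to 1.69% (exact 95% limit). In the 5 kb upstream of H19, where its control region lies (chr7:142578144-142583143), 51 of 908 reads were methylated (5.62%). The DNMT3A lines had 7.89% and 19.4% there, set b 4.41% and 28.3%, and the first line of set a 3.19%. N656I had 1.35% and 0%, K777A 0.862% and 3.91%, and N779A 5.56% and 0%. The 2 lines of set b lay on either side of both DNMT3A lines, so no order of the enzymes could be read from this region.

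Igf2, a fetal growth factor, had 33 of 3834 reads methylated in the cluster at its starts (chr7:142658239-142661413, 0.861%), with 1.09% and 2.44% in the DNMT3A lines. A smaller cluster upstream of the gene, printed above, had 42.9% and 78.0% in the DNMT3A lines, 48.5% and 2.22% in set a, 23.0% and 6.67% in N656I, 28.8% in the first line of set b, 12.5% and 6.59% in K777A and 18.6% in the second N779A line. Without the sparse line, set a (48.5%) lay between the 2 DNMT3A lines. The starts of Meg3, a growth-restraining noncoding RNA, had 9 of 734 reads methylated at chr12:109540723-109541813, with 3.75% and 5.71% in the DNMT3A lines and 0% in the other 7 lines read there. Dlk1, a Notch-like ligand gene, had 1.55% of 1550 reads at its first start and 5.04% of 536 at a further one. The control regions between Dlk1 and Meg3 and upstream of Rasgrf1 lie beyond the 5 kb taken here. Rasgrf1 and Zdbf2 had 1.61% of 1550 and 0.934% of 5568 at their starts.

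Away from starts, a cluster in a coding exon of Rasgrf1, an exchange factor for Ras (chr9:89953872-89954170), had the highest mean of the clusters read in 6 or more lines, 34.1%. It had 39.0% and 40.1% in the DNMT3A lines, 40.7% in set a, 61.9% in N656I and 6.06% and 16.7% in K777A. The coding exon cluster of Trappc9, whose protein serves vesicle transport (chr15:73025928-73026245), was read in all 12 lines. It had 33.3% and 38.2% in the DNMT3A lines, 28.4% and 31.1% in set a, 28.6% and 17.9% in N656I, 43.8% and 26% in set b, 4.44% and 5.26% in K777A and 13.1% and 12.6% in N779A. Here WT DNMT3B reached the level of DNMT3A, and both K777A lines lay below all others.

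A coding exon cluster of Slc38a4 (chr15:97009832-97010334) had 20% and 68.1% in the DNMT3A lines, 36.4% and 22.9% in set b and 4.55% and 3.7% in K777A. A coding exon cluster of Zim1, a zinc-finger gene (chr7:6677182-6678007), had 36.2% and 32.1% in the DNMT3A lines and 1.32% to 12.1% in the 9 DNMT3B lines read. A Meg3 exon cluster (chr12:109549324-109550016) ran from 3.45% to 48.8%, and an intronic one of Sfmbt2 (chr2:10553757-10554846), a Polycomb-related gene, from 1.16% to 32.2% with 22.8% and 10.3% in the DNMT3A lines. Over all clusters with a value, the means of a Mirg exon cluster (49.7%, 2 lines) and a further Meg3 cluster (35.7%, 1 line) were higher still, and clusters at H19, Dio3 and Slc38a4, read in 3 to 5 lines, had 0 methylated reads. An Igf2r cluster had 0% in its single line with 20 reads but 20 of 106 reads methylated over all lines. The lowest means of clusters read in 6 or more lines were 0.13% at Snrpn, 0.315% at the start of Sfmbt2 and 0.337% at Nespas in the Gnas locus.

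Just outside the 27 clusters at starts of egg-marked genes the level rose within 250 bp in the DNMT3A lines. Inside the clusters, where this profile takes all 2286 CpG sites between the ends, dense or not, the DNMT3A lines had 2.09% and 1.69%. Outside it was 14.0% and 18.2% at other sites within 250 bp of the edge, 36.2% and 15.7% at 250 to 500 bp and 31.8% and 32.6% at 500 to 1000 bp. Further out it was 34.0% and 25.6% at 1000 to 2000 bp, 36.3% and 46.5% at 2000 to 3000 bp and 30.1% and 36.2% at 3000 to 5000 bp, so that the lines did not climb steadily. In K777A it was 0.86% and 0.798% inside, 2.35% and 0.735% within 250 bp, 3.96% and 4.04% at 250 to 500 bp and 1.96% and 3.67% at 500 to 1000 bp. Further out K777A had 5.98% and 5.27%, 6.95% and 8.95%, and 9.67% and 7.56%. In the 10 DNMT3B lines the first 250 bp had 0% to 3.42%. The flanks rest on 95 to 408 reads per line in the first 250 bp. Around clusters at annotated starts elsewhere, DNMT3A had 1.52% and 1.75% at all sites inside and 8.98% and 9.16%, 28.0% and 28.0%, and 38.1% and 37.9% within 250 bp, at 500 to 1000 bp and at 2000 to 3000 bp.

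**Figure D4:**
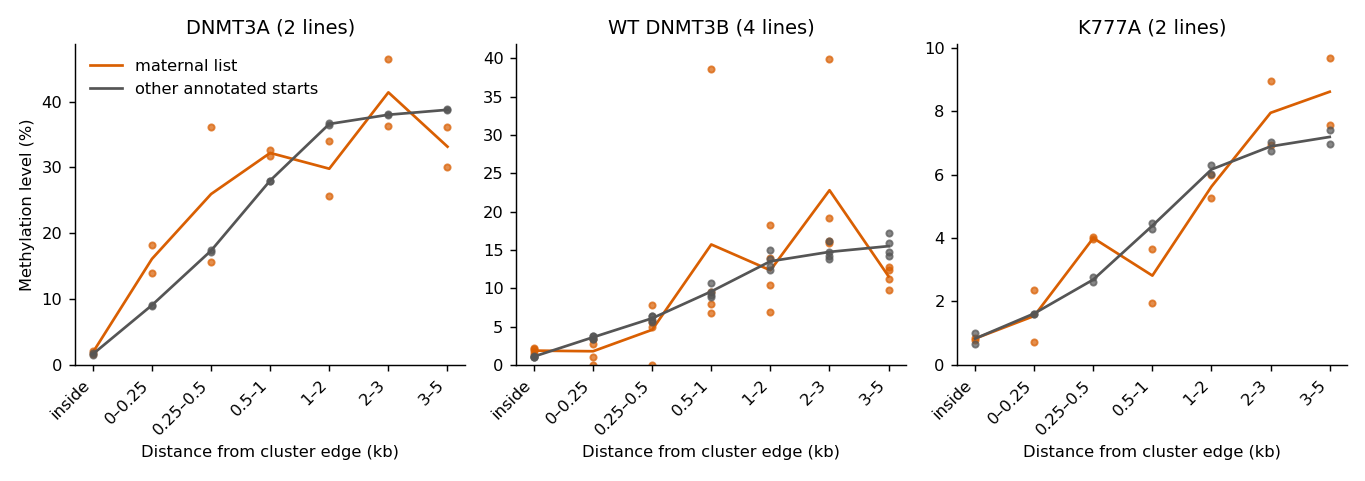
Methylation level (%) inside dense clusters and at other sites by distance from the cluster edge (kb). Orange marks the 27 clusters at starts of egg-marked genes, and grey the clusters at annotated starts elsewhere. Points are lines, and curves run through the means. Vertical scales differ between panels. DNMT3A goes from 2.09% and 1.69% inside to 30.1% and 36.2% at 3 to 5 kb, with dips on the way, and the points of 38.6% and 39.9% among the WT DNMT3B lines are the sparse line.

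In imprinted loci, dense CpG sites inside the TGCCGC motif were methylated no more than dense sites in general, in each of the 12 lines. At the 171 such sites in imprinted loci, the level was 3.23% and 9.33% in the DNMT3A lines, against 10.3% and 11.8% over all dense sites, and 1.18% and 0.60% in K777A against 2.41% and 2.30%. In the remaining gene loci such sites were slightly lower too in the DNMT3A lines, 9.88% and 11.9% against 10.8% and 12.6%. At other sites of imprinted loci the level inside the motif lay on either side of the general level. It was 36.0% and 53.8% against 41.7% and 43.4% in the DNMT3A lines, on 239 and 223 reads. The first lines of set a and set b and the second N779A line lay above as well, and the remaining lines below. K777A had 4.52% and 2.89% against 8.34% and 9.48%. In the remaining gene loci it had 3.47% and 3.74% against 7.86% and 8.94%. The motif was found in 14 of 55 RefSeq promoter windows of 37 imprinted genes (25.5%) and in 8 of 25 windows of the egg-marked genes (32.0%), beside 3813 of 32851 windows of all genes (11.6%). The motif holds a CpG, and the windows were not matched for CpG number. A gene can have several windows, each counted. A match says nothing about binding.

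The enzymes differed in the base after the CpG, which was read at the other sites of the imprinted loci. As a share of the summed levels of the 4 bases, K777A had 14.1% ± 0.99 (SD, n = 2) at G and 36.5% ± 0.354 at T, whereas set b had 30.1% ± 0.212 and 22.8% ± 0.495. N656I had 35.2% ± 0.0707 at G and 13.2% ± 0.919 at C, set a 31.1% ± 0.707 and 17.1% ± 2.69 (15.2% at C in its first line and 19% in the sparse line), and DNMT3A 24.4% ± 0.495 and 26.6% ± 0.919. N779A had 30.7% ± 0.849 at G and 29.0% ± 0.212 at T. The remaining gene loci had 14.2% at G and 36.1% at T in K777A and 35.9% at G in N656I. Wider gaps between the classes were 29.0% against 27.1% at T in N779A, 28.3% against 29.9% at A in set a and 21.2% against 19.9% at T in N656I (imprinted loci first). These shares are a description, with no test.

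Individual loci were then compared between enzymes. A locus was tested when it had 5 or more covered sites and 20 or more reads in every line, which held for 35 of the 45 imprinted loci and 20140 loci in all at other sites, and for 27 of 45 and 11150 at dense sites. Loci that failed include H19, Peg10, Nnat, Zrsr1 and Dio3 at other sites and Snrpn, Kcnq1ot1, H19 and Meg3 at dense sites. Mean levels of the 35 loci over the 12 lines ranged from 7.24% at Magel2 to 27.6% at Rian. Among all loci tested, Rian and Mirg, noncoding RNA genes beside Meg3 and Dlk1, stood at the percentiles 99.6 and 99.2, and Igf2r and Herc3 at 93.5 and 93.4. Magel2, Cdkn1c, Blcap and Ndn stood at 1.19, 4.58, 6.02 and 10.7.

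Rian was higher than the median locus in every line at other sites: 49.4% and 54.1% in the DNMT3A lines, 23.6% and 39.4% in set a, 28.9% and 15.2% in N656I, 24.1% and 24.8% in set b, 11.1% and 16.2% in K777A and 24.2% and 20.6% in N779A. Snrpn had 34.6% and 35.1% in the DNMT3A lines, 20% and 6.04% in set a, 12.7% and 7.94% in N656I, 7.44% and 8.12% in set b, 7.17% and 5.63% in K777A and 9.66% and 8.03% in N779A. Its locus was thus methylated away from the promoter cluster, which had 0% in both DNMT3A lines. Airn likewise had 45% and 45.8% in the DNMT3A lines at other sites, Mest 29.1% and 34.4%, Kcnq1ot1 33.5% and 37.1%, Peg3 41.7% and 53.8% and Gnas 38.7% and 42.6%. Igf2 had 26.9% and 31.3% in the DNMT3A lines, beside 0.971% and 1.56% in K777A, the lowest mean of a K777A pair among the 35. H19, which was not tested, had 9.09% and 25.7% with DNMT3A.

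**Figure D5:**
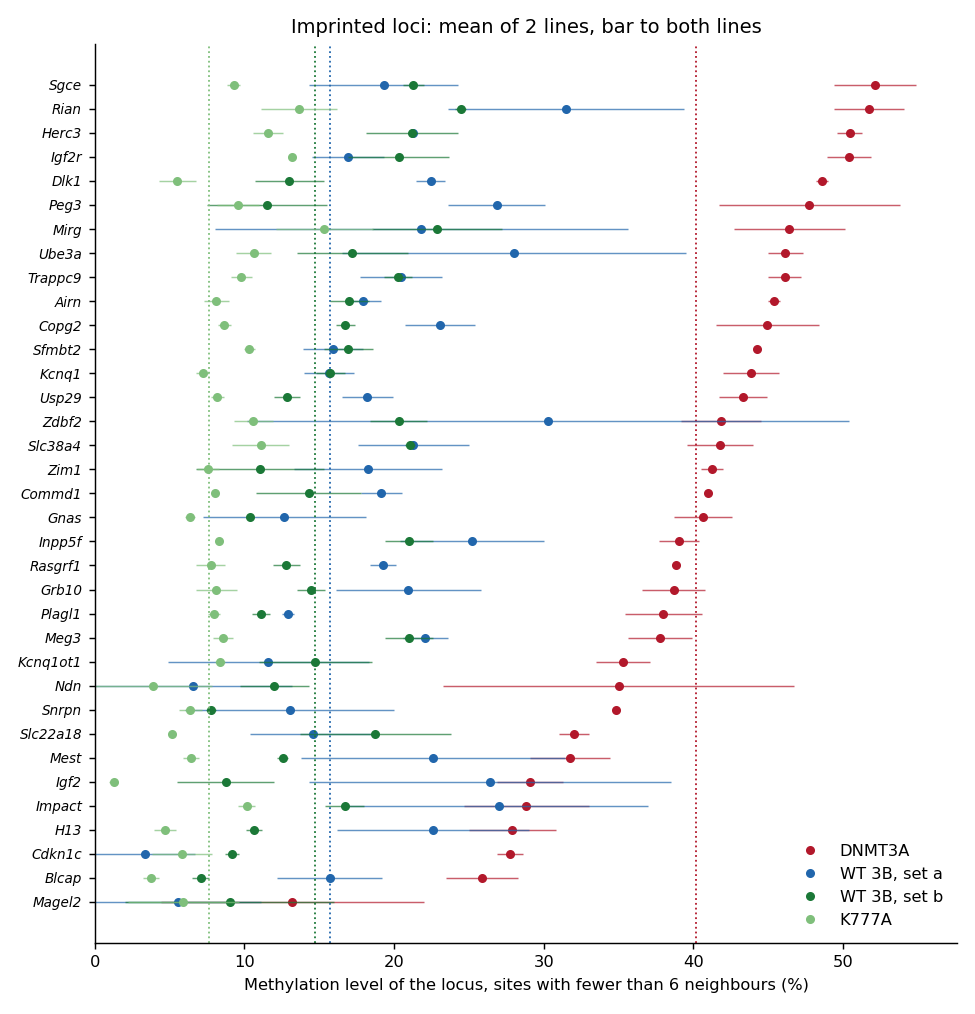
Methylation level (%) at other sites of the 35 imprinted loci tested, for 4 of the 6 groups, ordered by the DNMT3A mean. Points are means of 2 lines, bars reach to both lines, and dotted vertical lines are the medians of all 20140 loci tested for the same groups. Of the groups shown, DNMT3A is the highest at every locus and K777A the lowest at all but Magel2 and Cdkn1c, with long bars for set a where its sparse line differs, as at Zdbf2 (10.2% and 50.4%).

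After centring each line on its median locus, so that only a departure from the line's general level counts, no imprinted locus passed an adjusted p of 0.05 (limma, Benjamini-Hochberg over all loci) in any of the 4 comparisons or between the WT sets, at either class of sites. Over all loci 0% passed as well. Unadjusted p-values under 0.05 were found for 4, 2, 0 and 1 of 35 members at other sites (DNMT3A, N656I, K777A and N779A) among 2397, 2158, 883 and 793 of all loci, and for 4, 2, 2 and 3 of 27 at dense sites, among 2121, 746, 628 and 747 of all 11150 loci. edgeR's quasi-likelihood test called 0 members too, and 3 loci in all, in DNMT3A at dense sites. The standard errors of the members had a median of 0.465 on the log2 odds scale at other sites and 0.797 at dense sites.

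The extremes at other sites, none past the threshold, were Cdkn1c (log2 odds change 1.98, SE 1.01, adjusted p = 0.417 by limma) and Impact (−1.60, SE 0.54, adjusted p = 0.411) for DNMT3A against set a. Cdkn1c had 28.6% and 26.9% with DNMT3A, 6.67% in the first line of set a and 0% in the sparse line. Impact had 33.0% and 24.7% with DNMT3A, 17.0% in the first line of set a and 37.0% in the sparse line. For N656I they were Ndn (2.64, SE 1.35) and Dlk1 (−1.56, SE 0.48), with adjusted p = 0.446 and 0.444 by limma. Ndn had 12.1% and 23.7% with N656I and 13.2% and 0% in set a, where the 0% is the sparse line, and Dlk1 had 10.3% and 4.98% against 21.5% and 23.4%. For K777A against set b they were Peg3 (0.76, SE 0.55) and Ndn (−1.26, SE 1.35), and for N779A Mirg (0.58, SE 0.63) and Ndn (−3.68, SE 1.35). The set a minus set b comparison, with no difference in enzyme, ran from −2.06 at Cdkn1c to 1.65 at Igf2. Both ends lean on the sparse line, which had 0% at Cdkn1c and 38.5% at Igf2. The first line of set a had 6.67% and 14.3%.

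At dense sites, the extremes for DNMT3A were Mest (1.91, SE 0.74, adjusted p = 0.198 by limma) and Airn (−3.27, SE 1.36, adjusted p = 0.222 by limma). Mest had 15.7% and 14.7% with DNMT3A against 1.43% and 0% in set a, where the 0% is the sparse line. Airn had 11% and 10.1% with DNMT3A against 6.53% and 65.0% in set a, and of these 2 lines the sparse one lay above both DNMT3A lines. For N656I they were Peg10 (2.42), with 10.8% and 9.88% against 0% and 2.20% in set a, and Airn (−3.74). For K777A they were Nnat (1.24) and Rasgrf1 (−2.34), and for N779A Usp29 (2.34) and Rasgrf1 (−2.23). Between the WT sets they were Zdbf2 (2.59) and Inpp5f (−1.88). Of the 112 clusters, 21 were among the 6782 tested in all, and none passed in any comparison by limma, with 0, 0, 5 and 5 members at an unadjusted p under 0.05 among 583, 295, 392 and 555 of all clusters.

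Without centring, the comparison asks whether a locus differed at all. At other sites, 26 of 35 imprinted loci were then higher with DNMT3A than with set a (limma), beside 72.3% of all loci, and all 35 had a positive change, with a median of 1.65 on the log2 odds scale (median SE 0.483) against 1.85 over all loci. The largest was Cdkn1c (3.79, SE 1.06, adjusted p = 0.0115 by limma). It had 28.6% and 26.9% in the DNMT3A lines, beside 6.67% and 0% in set a, where the 0% is the sparse line. The smallest was Impact (0.20, SE 0.47). For K777A against set b all 35 had a negative change with a median of −0.87, against −0.94 over all loci. Limma called 0, with 15 members and 6625 of 20140 loci at an unadjusted p under 0.05, and edgeR called 7 lower beside 11.7% of all loci. The DNMT3A count lay close to its background share. It was 14 and 12 of 35 without the first or the second DNMT3A line, where 8011 of 20140 and 7887 of 20144 loci passed in all. With sites covered in all 4 lines compared, limma called 0 of 27 members and 0 of 11777 loci, with 13 members and 4905 loci at an unadjusted p under 0.05.

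Calls of single loci against set a depended on the sparse line. With its first line left out, so that the sparse line alone stood for set a and was assumed to vary like the other groups, limma called 13 of 35 imprinted loci for DNMT3A (41.8% of all loci passed) and 15 for N656I (40.7% of all loci), after centring. With the sparse line left out instead, 0 members were called in each.

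The lists of imprinted genes were compared by their median level with all loci tested. At other sites in DNMT3A, the median locus of the egg-marked list (11 of 17 tested) was 38.7%, of the sperm-marked list (5 of 6) 38.9%, of the partner and host genes (10 of 10) 44.4%, of the noncoding RNAs (5 of 7) 45.4%, of the growth regulators (6 of 9) 38.4% and of the Prader-Willi and Angelman cluster (4 of 5) 34.9%, beside 40.3% over all loci tested. In K777A they were 8.13%, 7.76%, 8.42%, 8.56%, 6.91% and 6.16%, beside 7.69%. In set a, the sparse line included, they were 21.0%, 22.5%, 19.2%, 21.8%, 18.9% and 9.80%, beside 16.0%. Imprinted genes outside the 45 (23 of 27 tested) had 38.9% in DNMT3A and 7.35% in K777A. Genes whose proteins guard imprints, such as Zfp57, Trim28 and Dppa3 (7 of 7), had 33.9% and 6.67%. Overlapping genes share sites and are not independent, as at Peg10 and Sgce, Peg3 and Usp29, Mest and Copg2, Kcnq1 and Kcnq1ot1, Igf2r and Airn, Blcap and Nnat, H13 and Mcts2, Commd1 and Zrsr1, Trappc9 and Peg13, and Herc3 and Nap1l5.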

How the data were processed

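The deposited counts, made by the authors, give for each of 12 lines the methylated reads and all reads at 21867550 CpG sites of GRCm38 (mm10), both strands summed, not normalized. The labels give MspI, BfaI and MseI as the enzymes of the digestion. According to the submitters' processing notes, cutadapt 1.12, Bismark 0.18.1 and Bowtie 1.2 were used. Per the study's methods, a read pair was discarded when either of its ends held 3 or more methylated cytosines outside CpG, which can remove reads from heavily methylated molecules. Reads carry no molecular identifiers, and the tables were used as deposited. Intervals cover counting error only, treat counts at linked sites as independent and can be too narrow.

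A level is the methylated reads divided by all reads, summed over sites, so a read over several sites is counted at each. The dense rule given for the sites can be read in 2 ways: 6 other sites within 100 bp on both sides together was used, and 6 on each side is an alternative. Genes and starts came from the GENCODE annotation for GRCm38 (loci from 5 kb upstream), and 82 genes with a shared symbol were left out. Clusters at starts overlap the window from 250 bp before to 50 bp after an annotated transcript start.

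The comparison of loci used limma 3.58.1 (R 4.3.3) on log2((m + 0.01)/(1 − m + 0.01)), where m is the level, with moderated variances and a trend, all 12 lines in 1 fit, each line centred on its median locus, two-sided, adjusted by Benjamini-Hochberg over all loci. edgeR 4.0.16 was an alternative. The tests were tested on simulated data. With 2 lines per group, p-values measure the spread between lines. The members, gene lists, rules and alternatives were chosen with earlier results of these data known. Snrpn, Peg3, Kcnq1ot1, Airn, Mest, H19, Igf2 and Gnas are always named. The rule further names, per comparison, the 5 largest changes in each direction among loci past the threshold or, where none passes, the largest, and, for clusters, those at or nearest the starts of the egg-marked and sperm-marked genes and the 3 highest and 3 lowest by mean. Without centring, which was no comparison of its own, the largest and smallest change are named. The choice to set 5 kb upstream of H19 and the further high clusters beside these was made after their values were seen.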

Additional observations from a re-analysis of the deposited data

How the results depend on the processing

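Of 249 alternative counts of imprinted loci called, 229 gave 0, as reported, and 20 did not. Of 166 planned ones, 159 gave 0. The planned counts that moved were those without centring (26 of 35 for DNMT3A at other sites) and those without the first line of set a. Leaving out 1 line in turn gave, with centring, 0 to 13 for DNMT3A, 0 to 15 for N656I and 0 to 16 between the WT sets at other sites, and 0 to 5, 0 to 4 and 0 to 4 at dense sites, the highest each time with the sparse line alone, where 8428, 8208 and 8518 of 20147 and 2882, 1581 and 1772 of 11178 loci passed in all. The alternatives that combine no centring with another choice were chosen after seeing the data. Among these, leaving out 1 line gave 12 to 23 for DNMT3A (14 and 12 of 35 without a DNMT3A line, 23 of 35 without the first line of set a, where 14491 of 20147 loci passed, and 23 of 44 without the sparse line, where 12710 of 26933 passed), 0 to 12 for N656I and 0 to 10 between the WT sets at other sites, and 0 to 13, 0 to 3 and 0 to 4 at dense sites. The highest of N656I and the WT sets came with the sparse line alone, where 7135 and 7346 of 20147 loci passed, as did those at dense sites, where 3353, 879 and 1193 of 11178 passed. The 4 compared lines alone gave 15 for DNMT3A (6604 of 20328 loci), sites covered in all 4 of them 0 of 27 (0 of 11777 loci), and edgeR 26 for DNMT3A (13747 of 20140 loci) and 7 for K777A (2350 of 20140). The replicate numbers did not pair the lines, with correlations of deviations between −0.0424 and 0.0319, and the replicate block gave 0 members with centring and 26 without for DNMT3A (14380 of 20140 loci). Of 72 alternative levels, 49 moved by less than the spread between lines. With 6 sites on each side, other sites had 38.1% (DNMT3A), 18.0% (set a), 15.3% (set b), 7.87% (K777A) and 12.6% (N779A), and dense sites 1.11%, 1.44%, 1.10%, 0.708% and 1.64%, with 1.09% for N656I. Sites covered in all 4 lines compared gave 44.3% (DNMT3A) and 16.6% (set b) at other sites, and 12.8% (DNMT3A), 7.11% (N656I), 2.93% (K777A) and 6.88% (N779A) at dense sites. The mean over sites gave 19.8% for set a at other sites and 2.68% (K777A) and 4.79% (N779A) at dense sites, a minimum of 5 reads per site 2.03% and 4.09%, and loci without the 5 kb upstream 17.3% for set b. The cause of these shifts was not tested. Most lines had 2.55 to 5.18 reads at a covered site, so single loci rest on few reads.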
